A study of Mus musculus with 16 samples.

Results

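Hnf4a, Pax2, Pax8, Esrra, Esrrg, Pou3f3, Tfcp2l1 and Foxi1 encode transcription factors that give the epithelial cells of the nephron and collecting duct their identity. Their levels were examined in obstructed and control mouse kidneys with and without IL-33. The 8 factors were picked by name, with no threshold on a measured value. 7 of them were matched by symbol to the deposited table of 18132 genes, and Tfcp2l1 was not analysed here. Unilateral ureteral obstruction (UUO) closes 1 ureter, so that urine backs up into the kidney and damages its tubules.

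RNA of whole kidneys was measured with Illumina MouseRef-8 v2 BeadChips, whose probes shine more brightly where their transcript is more abundant. 16 arrays, 1 per kidney, fell into 4 groups. 7 wildtype (WT) and 5 IL-33-deficient kidneys had been obstructed for 24 h with a metal clip on the ureter, and 2 WT and 2 IL-33-deficient kidneys were labelled control. Whether the control mice had been sham-operated is not given in the sources used here. The deficiency is of the whole body, on the C57BL/6J BomTac background, and IL-33 KO is the genotype label of those mice. The methods give an age of 8 weeks unless stated otherwise, and buprenorphine as analgesia for mice with UUO. The obstructed kidneys belonged to 2 sets of mice: 3 of the WT and 2 of the IL-33-deficient kidneys to set 1, the other 4 and 3 to set 2. Controls carried no set label. Arrays are named by the number in their label. Values are log2 intensities, on which a step of 1 doubles the intensity, and errors are SD over arrays or the standard error (SE) of a difference. Intensities of different genes come from different probes and were not set against each other.

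Tubule cells of each segment are held in their state by a small set of factors. HNF4A, a nuclear receptor, acts in the proximal tubule on genes of solute transport and metabolism. The estrogen-related receptors ESRRA and ESRRG are orphan nuclear receptors that act with the coactivator PPARGC1A on genes of mitochondrial energy metabolism. PAX2 and PAX8 are paired box factors that found the nephric lineage in the embryo, and PAX8 is still made along the adult tubule. POU3F3 is a factor of the loop of Henle and the thick ascending limb, TFCP2L1 of the collecting duct, and FOXI1 of the intercalated cells.

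The genes that moved after UUO start from promoters of unlike composition. The 250 bases before the start of Hnf4a (the downstream of its RefSeq starts), Esrra and Pax8 are shown to make that visible, 5′ to 3′ on the strand of the gene, with CG dinucleotides in capitals. The sequences are those of RefSeq on GRCm38.p6.
Hnf4a, chr2:163546905-163547154, plus strand: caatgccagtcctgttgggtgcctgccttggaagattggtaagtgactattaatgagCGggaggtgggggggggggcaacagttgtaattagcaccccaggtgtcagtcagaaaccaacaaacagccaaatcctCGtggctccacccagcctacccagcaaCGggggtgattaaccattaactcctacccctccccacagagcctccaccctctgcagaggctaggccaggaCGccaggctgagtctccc
Esrra, chr19:6921809-6922058, minus strand: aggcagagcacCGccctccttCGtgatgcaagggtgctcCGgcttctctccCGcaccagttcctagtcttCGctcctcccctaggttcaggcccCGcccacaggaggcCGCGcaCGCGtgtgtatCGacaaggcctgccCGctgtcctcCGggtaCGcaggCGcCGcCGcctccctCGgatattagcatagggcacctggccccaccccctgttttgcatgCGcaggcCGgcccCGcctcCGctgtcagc
Pax8, chr2:24475600-24475849, minus strand: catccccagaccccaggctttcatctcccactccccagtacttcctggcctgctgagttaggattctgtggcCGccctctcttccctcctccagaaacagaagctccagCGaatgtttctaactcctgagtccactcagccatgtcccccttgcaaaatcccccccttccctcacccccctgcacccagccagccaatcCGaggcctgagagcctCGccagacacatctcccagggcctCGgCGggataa
The window of Esrra held 22 CG dinucleotides and a GC content of 68.4%, that of Pax8 6 and 60.4%, and that of Hnf4a 4 and 57.6%, beside a median of 6 CG over 32851 RefSeq windows of the same length. A pair of short motifs was searched on both strands. The motif shares of all windows and of all genes, here and below, are of windows that also take in 50 bases after the start. CAAAGNNCA, a core of sites bound by HNF4 receptors, stood in 6.36% of all windows, and CAAGGTCA, which estrogen-related receptors bind, in 1.56%. No window of the 7 measured factors, of the 250 bases before the start alone, held either motif. This says only that these letters are not in it.

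The labels were checked on Il33 itself, a cytokine that is kept in the nucleus. It lay at 7.62 and 8.02 in the WT controls and between 8.39 and 9.57 in the obstructed WT kidneys. In IL-33-deficient kidneys it lay between 6.80 and 7.02 on all 7 arrays. After UUO the IL-33-deficient mean differed from the WT mean by -2.36 (SE 0.17), with an adjusted p of 9.55e-05 from limma. Whether the probe lies in the deleted stretch is not given in the sources used here. Havcr1 and Lcn2, which injured tubules make, marked the obstructed kidneys. Havcr1 lay between 7.07 and 7.37 in the 4 controls and between 10.42 and 13.95 in the 12 obstructed kidneys. The WT arrays 3818 and 3820 of set 1 had the lowest Havcr1 of the obstructed kidneys, 12.84 and 10.42. They stand apart in several of the results that follow, which are therefore also given without them.

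Hnf4a fell after UUO in both genotypes. It lay at 11.85 and 11.73 in the WT controls. In the WT obstructed kidneys of set 1 it lay at 11.39 (3818), 10.50 (3819) and 11.54 (3820), and in those of set 2 at 10.84, 11.04, 10.79 and 10.57. Each obstructed WT kidney was below both controls, and arrays 3818 and 3820 were nearest to them. The mean went from 11.79 ± 0.08 (SD, n = 2) to 10.95 ± 0.40 (SD, n = 7), a difference of -0.83 (SE 0.23, 95% interval -1.32 to -0.34) and an intensity of 56.2% of that of the controls, with an adjusted p of 0.0233 from limma over all genes. The 2 IL-33-deficient controls lay at 11.81 and 11.64. The 5 obstructed IL-33-deficient kidneys lay at 10.43, 10.67, 10.92, 10.60 and 11.01, all below their controls. Their difference was -0.996 (SE 0.24, 95% interval -1.51 to -0.48), or 50.1% of the control intensity, with an adjusted p of 0.00682 from limma. By the exact permutation test, two-sided, p was 0.0278 in WT and 0.0476 in IL-33-deficient kidneys, the smallest that 7 against 2 and 5 against 2 arrays allow. These falls are of RNA from whole kidneys, in which fewer cells of a type and less RNA per cell cannot be told apart.

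Esrra fell beside it. WT controls lay at 10.84 and 10.80. Obstruction gave 10.50 (3818), 9.75 (3819) and 10.74 (3820) for the WT kidneys of set 1. Those of set 2 had 9.80, 10.10, 9.77 and 9.59. As for Hnf4a, arrays 3818 and 3820 were close to the controls and the other 5 were lower by more. The difference was -0.79 (SE 0.23, 95% interval -1.27 to -0.30), 57.9% of the control intensity, with an adjusted p of 0.0298 from limma. In IL-33-deficient kidneys the controls lay at 10.89 and 11.04 and the obstructed kidneys between 9.70 and 9.90, a spread of 0.08 (SD, n = 5). That difference was -1.16 (SE 0.24, 95% interval -1.67 to -0.66), 44.7% of the control intensity, with an adjusted p of 0.00229. The exact permutation p values were the same as for Hnf4a, 0.0278 and 0.0476.

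Pax8 rose. It lay at 7.29 and 7.28 in the WT controls and at 7.24 and 7.28 in the IL-33-deficient controls. The WT obstructed kidneys of set 1 lay at 7.45 (3818), 7.61 (3819) and 7.46 (3820). Those of set 2 reached 7.87, 7.68, 8.04 and 8.005. All 7 were above both controls, and the kidneys of set 1 were the lowest 3. The difference was 0.45 (SE 0.14, 95% interval 0.15 to 0.75), a fold of 1.36, with an adjusted p of 0.0424 from limma and an exact permutation p of 0.0556. Obstructed IL-33-deficient kidneys lay at 7.73, 7.99, 7.98, 7.92 and 7.73, above their controls by 0.61 (SE 0.15, 95% interval 0.30 to 0.92), a fold of 1.53. There the adjusted p was 0.00642 and the exact permutation p 0.0476. Background is part of each intensity and lessens the fold of a dim gene. With the lowest intensity of the table taken off first, the difference of Pax8 was 0.78 in WT and 1.07 in IL-33-deficient kidneys.

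Thus 2 of the 7 measured factors were lower and 1 was higher after UUO in either genotype. The arrays of these 3 did not overlap with their controls, and the share of all genes for which this holds was not counted. Over all 18132 genes, 15.2% were called in WT kidneys at an adjusted p under 0.05, with 8.22% below and 6.97% above the controls. For IL-33-deficient kidneys the share was 21.8%, with 11.2% below and 10.6% above. Of the 9066 genes above the median intensity, tested alone, 1554 were called lower and 1435 higher in WT kidneys. In IL-33-deficient kidneys these counts were 2011 and 2012. Brighter genes were thus called more often, and the shares of all genes, here and below, are low for lists of bright genes. The calls in WT kidneys rested on both controls. Without array 3811, or without array 3812, none of the 7 factors was called there, although all 3 kept their direction, and the adjusted p of Hnf4a was 0.185 and 0.131, that of Esrra 0.185 and 0.174 and that of Pax8 0.206 and 0.236. Without the obstructed WT array 3892, Hnf4a alone was called, with adjusted p of 0.0509 for Esrra and 0.0703 for Pax8. With no IL-33-deficient array in the fit, none was called in WT kidneys (adjusted p 0.0751 for Hnf4a, 0.114 for Esrra and 0.117 for Pax8), and the rise of Pax8 was not called under 13 of 26 alternatives. In IL-33-deficient kidneys Esrra alone was called without control 3813, where the adjusted p was 0.0856 for Hnf4a and 0.0688 for Pax8.

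Without arrays 3818 and 3820, all 3 differences in WT kidneys were larger. They were -1.04 for Hnf4a (adjusted p 0.000132), -1.02 for Esrra (adjusted p 3.71e-06) and 0.56 for Pax8 (adjusted p 0.00162). Each set of mice was also set against the same controls. Set 1 alone, with 3 WT arrays, gave -0.64 for Hnf4a, -0.49 for Esrra and 0.23 for Pax8 and called none (adjusted p 0.322, 0.397 and 0.238). Set 2 alone gave -0.98, -1.01 and 0.62 and called all 3.

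**Figure D1:**
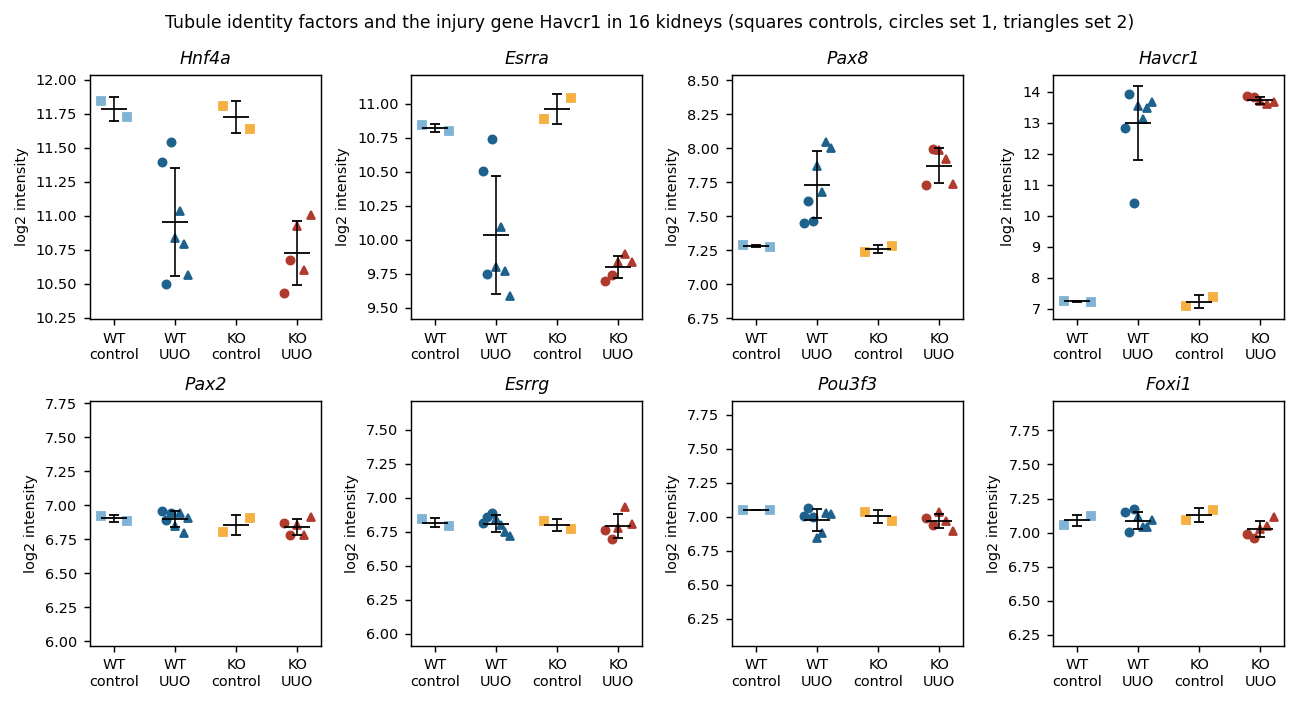
log2 intensity (y axis, a range of its own in each panel) of the 7 measured factors and of the injury gene Havcr1 in WT and IL-33-deficient (KO) kidneys, control and after UUO. Each symbol is 1 kidney (squares controls, circles set 1, triangles set 2), the long line is the mean and the bars are 1 SD. Hnf4a and Esrra were lower and Pax8 higher in every obstructed kidney than in the controls of its genotype, while the 4 factors of the lower panels stayed within 0.24 over all 16 kidneys.

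Pax2, Esrrg, Pou3f3 and Foxi1 varied little over the kidneys. Pax2, the other paired box factor, lay between 6.78 and 6.96 over the 16 arrays and Esrrg, the second estrogen-related receptor, between 6.69 and 6.93. Pou3f3 lay between 6.84 and 7.06 and Foxi1 between 6.96 and 7.17. Their linear intensities, 103 to 122 for Esrrg, 110 to 124 for Pax2, 115 to 133.5 for Pou3f3 and 125 to 144 for Foxi1, were little above the lowest intensity of the table, 95.48. Without detection p-values, a weak signal of these 4 probes and their background could not be told apart. After UUO in WT kidneys, Pax2 differed from the controls by -0.0058 (95% interval -0.11 to 0.10), Esrrg by -0.0082 (-0.13 to 0.11), Pou3f3 by -0.07 (-0.19 to 0.05) and Foxi1 by -0.0011 (-0.11 to 0.11). The groups of each of these 4 factors overlapped, and none was called. In IL-33-deficient kidneys the intervals ran from -0.12 to 0.09 for Pax2, -0.13 to 0.12 for Esrrg, -0.16 to 0.09 for Pou3f3 and -0.21 to 0.01 for Foxi1, whose adjusted p of 0.219 was the lowest of the 4. These intervals are of intensity with its background and bound no change in transcript.

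The study's question was whether IL-33 deficiency alters the early response of the kidney, and the factors were compared between genotypes in 3 ways. In control kidneys the IL-33-deficient mean differed from the WT mean by -0.06 for Hnf4a (95% interval -0.67 to 0.55), 0.14 for Esrra (-0.46 to 0.75) and -0.02 for Pax8 (-0.39 to 0.35). None of the 7 factors was called, as for all genes of the table (0%, with 664 genes or 3.66% at an unadjusted p under 0.05). After UUO, over the 12 obstructed kidneys, the IL-33-deficient mean was -0.23 from the WT mean for Hnf4a (SE 0.18, interval -0.62 to 0.16, adjusted p 0.724) and for Esrra (SE 0.18, interval -0.62 to 0.16, adjusted p 0.715), and 0.14 above it for Pax8 (SE 0.11, interval -0.10 to 0.38, adjusted p 0.717). The exact permutation p values over arrays were 0.287, 0.307 and 0.27. The threshold here was that of the study, an unadjusted p under 0.05 with a false discovery rate under 0.25 and a fold above 1.3, applied to all 7 WT arrays, whereas the contrast of the study had fewer WT arrays. None of the 7 factors was called, against 0.011% of all genes (2 genes, with 1874 or 10.3% at an unadjusted p under 0.05). The responses to UUO themselves differed between the genotypes, IL-33-deficient less WT, by -0.16 for Hnf4a (interval -0.87 to 0.54, adjusted p 0.989), -0.38 for Esrra (-1.08 to 0.33, adjusted p 0.973) and 0.16 for Pax8 (-0.27 to 0.60, adjusted p 0.978), with no gene of the table called by limma (0%, and 860 genes or 4.74% at an unadjusted p under 0.05).

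Neither set of mice alone gave a called difference between the genotypes after UUO, and the sets were not tested against each other in it. In set 1 the IL-33-deficient mean was -0.60 from the WT mean for Hnf4a and for Esrra and 0.35 for Pax8 (adjusted p 0.736 for each, 2 against 3 arrays). In set 2 the difference was 0.04 for Hnf4a, 0.05 for Esrra and -0.02 for Pax8, so that its sign turned for all 3 factors. Without arrays 3818 and 3820 it was -0.02 for Hnf4a, 0.0031 for Esrra and 0.03 for Pax8. The order of group means was WT control, IL-33-deficient control, WT UUO and IL-33-deficient UUO for Hnf4a, from high to low, and the neighbours of each treatment did not differ beyond their spread. Esrra had the same order but for the 2 control groups, which changed places, and Pax8 went from 7.87 in IL-33-deficient UUO through 7.73 in WT UUO and 7.28 in WT control to 7.26 in IL-33-deficient control.

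Between the sets of mice, with genotype in the model, Pax8 was higher in set 2 by 0.24 (SE 0.09, unadjusted p 0.0226, adjusted p 0.386), Hnf4a differed by -0.08 (interval -0.48 to 0.33) and Esrra by -0.25 (interval -0.62 to 0.13). No gene of the table was called between the sets (0%, with 1833 or 10.1% at an unadjusted p under 0.05). In WT arrays only, Pax8 differed by 0.39 between the sets, and in IL-33-deficient arrays only by 0.02.

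**Figure D2:**
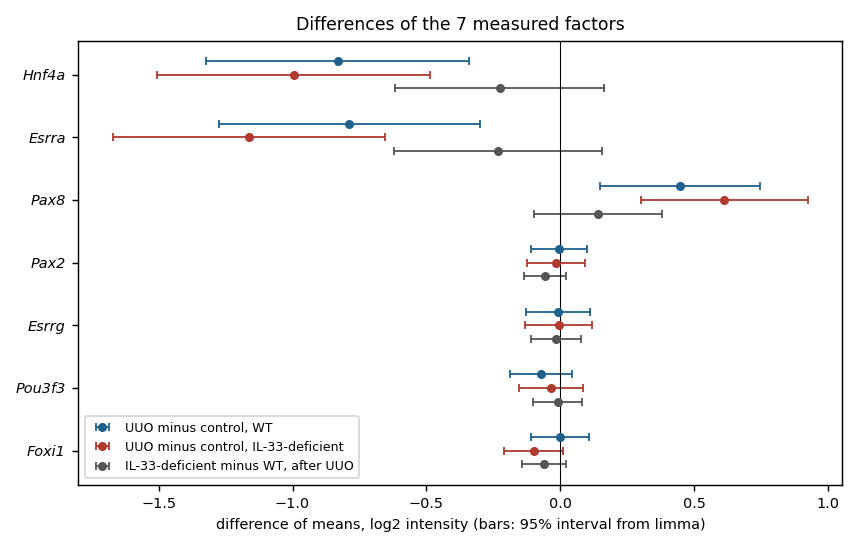
Difference of group means in log2 intensity (x axis) for the 7 measured factors, UUO less control in WT (blue) and in IL-33-deficient kidneys (red), and IL-33-deficient less WT after UUO (grey). Points are differences and bars their 95% intervals from limma. The intervals of Hnf4a, Esrra and Pax8 leave out 0 for both responses to UUO, and those between the genotypes after UUO hold 0 for all 7 factors.

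Among the obstructed kidneys Hnf4a and Esrra moved with the injury gene Havcr1 and with each other. The 6 relations among Havcr1, Hnf4a, Esrra and Pax8 were chosen after their values were seen, and p was adjusted over these 6 alone. Arrays were permuted across both genotypes and both sets with no group means removed, so p also takes in differences between these groups. Over the 12 obstructed kidneys Hnf4a was lower where Havcr1 was higher (Pearson r = -0.807, permutation p 8e-05, adjusted p 0.0003; Spearman rho = -0.811, permutation p 0.0021, adjusted p 0.0064). Esrra followed Havcr1 likewise (r = -0.889, permutation p 0.00015, adjusted p 0.0003; rho = -0.769, permutation p 0.005, adjusted p 0.01). Arrays 3818 and 3820 were the farthest from the median of Havcr1, and without them r was -0.693 for Hnf4a and -0.733 for Esrra. Within set 2, of 7 arrays, r was -0.44 and -0.735, and set 1 has 5 arrays, too few for a value of its own. Kidneys with more Hnf4a also had more Esrra (r = 0.908, permutation p 0.0001, adjusted p 0.0003; rho = 0.846, permutation p 0.001, adjusted p 0.0061), with r of 0.674 without the 2 arrays farthest from the median and 0.641 within set 2.

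The relations of Pax8 over the 12 kidneys were weaker or gone without arrays 3818 and 3820, while set 2, which holds neither array, gave values near those over all 12. With Havcr1 r was 0.594 (permutation p 0.017, adjusted p 0.021) and rho 0.294 (permutation p 0.35, adjusted p 0.35), and r was -0.014 without arrays 3818 and 3820 and 0.569 in set 2. With Hnf4a r was -0.604 (permutation p 0.037, adjusted p 0.037) and rho -0.413 (permutation p 0.19, adjusted p 0.22), and without the 2 arrays r was 0.012, with -0.684 in set 2. With Esrra r was -0.766 (permutation p 0.0027, adjusted p 0.004) and rho -0.566 (permutation p 0.06, adjusted p 0.09), and r was -0.352 without the 2 arrays and -0.718 in set 2.

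**Figure D3:**
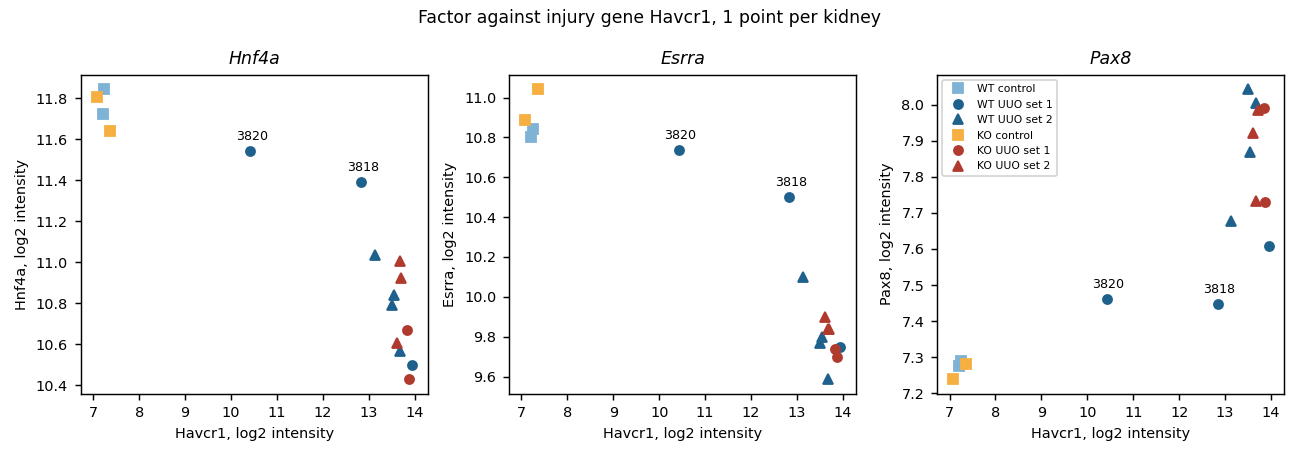
Havcr1 (x axis, log2 intensity) against Hnf4a, Esrra and Pax8 (y axis, log2 intensity, a range of its own in each panel), 1 symbol per kidney, with controls as squares and set 1 and set 2 as circles and triangles. The WT arrays 3818 and 3820 lie between the controls and the other obstructed kidneys, with Hnf4a at 11.39 and 11.54 and Havcr1 at 12.84 and 10.42.

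The other transcription factors of the tubule and collecting duct were counted from a list of 27, of which 25 were measured. In WT kidneys 6 of the 25 were called lower and 1 higher after UUO, beside 8.22% and 6.97% of all genes, and the median difference of the list was -0.06, where that of all genes was -0.00076. Lhx1, a factor of nephron formation, fell (-0.69, SE 0.14, adjusted p 0.00343), as did Irx2, of the Iroquois family (-0.61, SE 0.09), and Sim2 (-0.596, SE 0.12). Elf3, an epithelial factor of the ETS family, rose by 0.51 (SE 0.09, adjusted p 0.00203). In IL-33-deficient kidneys 7 of 25 were called lower and 2 higher, and the named 4 had the same directions at -0.94, -0.48, -0.54 and 0.59, all called. In set 1 alone 2 of the 25 were called lower and 0 higher in WT kidneys. There 112 genes of the table were called lower and 85 higher. Over the table the genes called lower in WT kidneys were 1491 in the main fit, 594 without control 3811 and 436 without control 3812. In IL-33-deficient kidneys they were 2039, with 1225 without control 3813 and 1366 without control 3814. List counts under these settings, here and below, are to be read beside those of the table. Without control 3811 the count of lower factors in WT kidneys was 3, and in IL-33-deficient kidneys it was 3 without control 3813 and 4 without control 3814. The count of higher factors was 1 in IL-33-deficient kidneys without either control or without array 3821, 3822 or 3898.

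Of 18 listed nuclear receptors, coactivators and other regulators of tubule metabolism 17 were measured. 8 were called lower and 0 higher in WT kidneys, with a list median of -0.26, beside 8.22% and 6.97% of all genes. The IL-33-deficient kidneys had 9 lower and 0 higher, with a median of -0.27, beside 11.2% and 10.6% of all genes. Esrrb, the remaining estrogen-related receptor, fell, with a difference of -1.85 (SE 0.24, adjusted p 0.000227) in WT and -1.52 (SE 0.25) in IL-33-deficient kidneys. Ppargc1a, the coactivator that works with these receptors, had differences of -1.33 (SE 0.23, adjusted p 0.00152) and -1.43 (SE 0.24). Vdr, the vitamin D receptor, had -0.99 (SE 0.24, adjusted p 0.0119) and -1.28 (SE 0.25). In set 1 alone 3 of these regulators were called lower in WT kidneys. The WT count was 4 without either control, 5 without array 3892 or 3893, and the IL-33-deficient count 5 without control 3813.

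Factors known from injured or regenerating tubules moved the other way. Of 10 measured of 12 listed, 6 were called higher and 0 lower in WT kidneys (median 0.93), and 5 higher and 0 lower without IL-33 (median 0.85). Of all genes 6.97% and 10.6% were called higher. Klf6, an early injury factor, rose by 1.71 (SE 0.32, adjusted p 0.00247) in WT kidneys, Cebpb, a factor of the acute phase, by 1.65 (SE 0.29) and Stat3, which carries cytokine signals to the nucleus, by 1.09 (SE 0.12, adjusted p 9.16e-05). In set 1 alone 1 of the injury factors was called higher in WT kidneys.

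The segment genes of each factor were counted next, to be read beside the same shares of all genes. The proximal tubule, where HNF4A acts, was read from 13 measured genes. In WT kidneys 3 were called lower and 0 higher, with a list median of -0.66. The IL-33-deficient kidneys had 10 lower and 0 higher, with a median of -1.27. Of all genes 8.22% and 11.2% were called lower. Miox, which breaks down inositol, differed by -2.05 (SE 0.38, adjusted p 0.00232) in WT and -3.13 (SE 0.40) in IL-33-deficient kidneys. Ass1, of arginine synthesis, differed by -1.65 (SE 0.30) and -2.49 (SE 0.32), and Gatm, of creatine synthesis, by -0.62 (SE 0.07) and -0.61 (SE 0.07). The WT count changed with the 2 arrays with the lowest Havcr1, as did the count over the table. It was 8 without array 3820, 9 without both 3818 and 3820, 11 in set 2 alone and 1 in set 1 alone. The table had 1491 genes called lower in the main fit and 1866 without array 3820. It had 2110 without both arrays, 2158 in set 2 alone and 112 in set 1 alone. Between the genotypes after UUO none of the 13 was called, beside 0.011% of all genes. 12 of the 13 were lower in the IL-33-deficient mean, with a median of -0.63 where that of all genes was 0.0026. The median was -1.07 in set 1, -0.41 in set 2 and -0.39 without arrays 3818 and 3820.

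Of the 15 listed proximal tubule genes 13 have a promoter window in the RefSeq table. 4 of those hold the HNF4 motif CAAAGNNCA in the 250 bases before a start (Aqp1, Cubn, Lrp2 and Slc13a3). The share of all 27025 genes with the motif, 7.27%, is of windows that also take in 50 bases after the start. The sites of the 3 that were measured are given with 10 bases on either side, 5′ to 3′ on the strand of the gene, on GRCm38.p6, with the motif in capitals, read on either strand.
Lrp2, which encodes the endocytic receptor megalin, chr2:69586165-69586193, minus strand, 154 bases before the start: cccagagtcgCAAAGTGCAgggggcgggc
Slc13a3, a carrier of dicarboxylates, chr2:165473352-165473380, minus strand, 173 bases before the start: tagtcccaccTGGGCTTTGccccatttcc
Aqp1, the water channel of the proximal tubule, chr6:55336084-55336112, plus strand, 205 bases before the start: caggcaccctTGAGCTTTGcaggctgggc
Lrp2 differed after UUO by -0.23 (SE 0.11, adjusted p 0.217) in WT and -0.20 (SE 0.12, adjusted p 0.287) in IL-33-deficient kidneys. Slc13a3 differed by -0.97 (SE 0.33, adjusted p 0.0636) and -1.89 (SE 0.35, adjusted p 0.00108), and Aqp1 by -0.78 (SE 0.29, adjusted p 0.0852) and -1.27 (SE 0.30, adjusted p 0.00599). Slc13a3 and Aqp1 were thus called in IL-33-deficient kidneys, and Lrp2 in neither genotype. A match of letters is a description and not a bound site.

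In the thick ascending limb, where POU3F3 is found, 8 of 10 genes were called lower and 0 higher in WT kidneys (median -0.96) and 7 and 0 in IL-33-deficient kidneys (median -1.04). Egf, a growth factor, differed by -4.15 (SE 0.76, adjusted p 0.00205) and -4.86 (SE 0.79). Slc12a1, the sodium-potassium-chloride transporter, differed by -3.12 (SE 0.61) and -3.13 (SE 0.64), and Bsnd, a subunit of chloride channels, by -1.86 (SE 0.38) and -1.82 (SE 0.40). The Pou3f3 probe stayed within 0.22 over all arrays. In set 1 alone 0 of the 10 thick ascending limb genes were called lower in WT kidneys. The WT count was 3 without control 3811 and 5 without control 3812.

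In the intercalated cells, where FOXI1 is found, 6 of 12 genes were called lower and 0 higher in either genotype (medians -0.21 and -0.23). Slc4a1, the anion exchanger, differed by -2.17 (SE 0.37, adjusted p 0.00141) and -2.57 (SE 0.38). Rhcg, an ammonia channel, differed by -1.03 (SE 0.19) and -0.78 (SE 0.20), and Atp6v1c2, of the proton pump, by -0.94 (SE 0.15) and -1.36 (SE 0.16). In set 1 alone the WT count of intercalated cell genes was 0. Principal cells of the collecting duct, where TFCP2L1 is found, had 4 of 9 genes called lower and 0 higher in either genotype (medians -0.44 and -0.51). In WT kidneys the water channels Aqp3 and Aqp2 fell (-1.35, SE 0.27, and -1.08, SE 0.30), as did Scnn1a, of the sodium channel (-1.10, SE 0.33, adjusted p 0.0329). That count was 0 without control 3811, 1 without control 3812 and 7 without arrays 3818 and 3820 in WT kidneys, and 1 without control 3813 in IL-33-deficient kidneys. In set 1 alone the WT count of principal cell genes was 0. In the distal convoluted and connecting tubule 4 of 6 genes were called lower in WT and 2 of 6 in IL-33-deficient kidneys, and 0 higher in either. Pvalb, a calcium-binding protein, differed by -3.07 (SE 0.16) and -3.19 (SE 0.17), and Slc8a1, the sodium-calcium exchanger, by -1.53 (SE 0.18) and -1.82 (SE 0.19). Slc12a3, the thiazide-sensitive transporter, fell in WT kidneys (-0.63, SE 0.14) and was not called in IL-33-deficient ones (-0.35, adjusted p 0.123). In set 1 alone 2 of the 6 were called lower in WT kidneys. The WT count was 2 without either control.

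Mitochondrial genes of the kind that ESRRA acts on were measured for 19 of 20 listed. In WT kidneys 6 were called lower and 0 higher (median -0.22), and without IL-33 11 and 0 (median -0.31), where 8.22% and 11.2% of all genes were called lower. Idh3a, of the citric acid cycle, differed by -0.67 (SE 0.12, adjusted p 0.00225) in WT kidneys and by -0.74 (SE 0.13) in IL-33-deficient kidneys. Sdhb, of succinate dehydrogenase, differed by -0.59 (SE 0.13) and -0.77 (SE 0.14). Of the 20 listed genes 14 have a promoter window. CAAGGTCA was in 0 of these, beside 1.76% of all genes, and CAAAGNNCA in 1, beside 7.27%. In set 1 alone 0 mitochondrial genes were called lower in WT kidneys. The WT count was 2 without control 3811, 3 without control 3812 and 10 in set 2 alone, and the IL-33-deficient count 6 without either control.

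**Figure D4:**
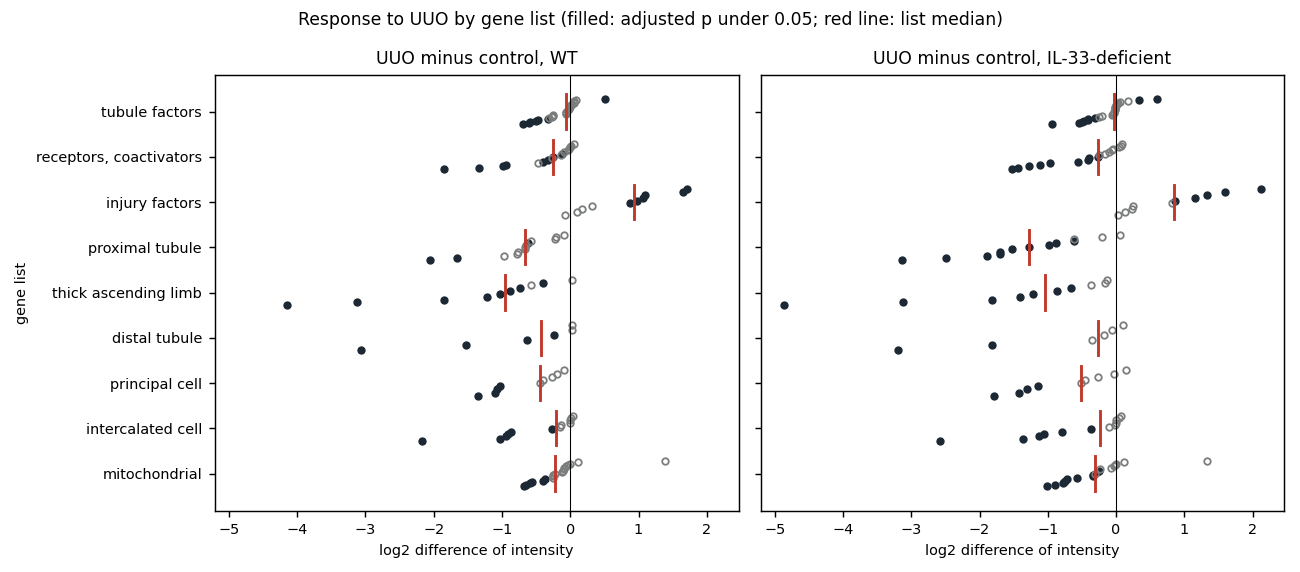
Difference in log2 intensity after UUO (x axis) for each gene of 9 lists (y axis), in WT kidneys on the left and IL-33-deficient kidneys on the right. Filled points were called at an adjusted p under 0.05, open points were not, and the red line is the list's median. Called segment and mitochondrial genes lie to the left of 0, and called injury factors to the right.

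Some markers of other cell types moved at the same time as the factors. Of 10 leukocyte markers 2 were called higher in WT and 5 in IL-33-deficient kidneys, beside 6.97% and 10.6% of all genes, and 0 lower in either. The summed intensity of the list was 2867 to 2921 in WT controls, 3268 to 6263 in obstructed WT kidneys, 2328 to 2635 in IL-33-deficient controls and 4132 to 6612 in obstructed IL-33-deficient kidneys. S100a8, of neutrophils, rose by 1.54 (SE 0.41) and 2.58 (SE 0.43), and Cd68, of macrophages, by 0.62 (SE 0.18) and 0.96 (SE 0.19). Of 7 fibroblast and mural markers 4 were called higher and 0 lower in either genotype, beside 6.97% and 10.6% of all genes called higher. By mean, 5 were higher and 2 lower in either genotype. Pdgfra went from 8.84 to 8.60 in WT and from 8.88 to 8.73 in IL-33-deficient kidneys. Dcn went from 10.18 to 10.02 and from 10.27 to 10.21, and neither was called. The sums of the 7 markers were 3121 to 3557 and 3196 to 4966 in WT and 3182 to 3276 and 5172 to 6105 in IL-33-deficient kidneys, controls first. Col1a1, of collagen I, rose by 1.17 (SE 0.29) and 1.63 (SE 0.31), Col3a1, of collagen III, by 0.84 (SE 0.16) and 1.301 (SE 0.17), and Acta2, of myofibroblasts, by 0.49 (SE 0.15) and 1.54 (SE 0.16). Of 7 endothelial markers 0 were called in WT kidneys and 2 were called lower in IL-33-deficient kidneys, beside 8.22% and 11.2% of all genes called lower, and the sums of 4172 to 4202 and 3657 to 4324 in WT and 4130 to 4544 and 3904 to 4651 in IL-33-deficient kidneys overlapped.

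Of 4 podocyte markers 2 were called lower in either genotype, beside 8.22% and 11.2% of all genes. Among them was the factor Tcf21 with differences of -0.49 and -0.73. Of 6 injured tubule markers 5 were called higher in WT and 6 in IL-33-deficient kidneys, beside 6.97% and 10.6% of all genes. Havcr1 rose by 5.78 (SE 0.62) and 6.52 (SE 0.64), Lcn2 by 5.61 (SE 0.36) and 5.91 (SE 0.37), and the keratin Krt20 by 3.24 (SE 0.59) and 3.19 (SE 0.61). The summed intensity of the proximal tubule genes went the other way, from 73951 to 75275 in WT controls to a range of 23286 to 63230 after UUO, and from 76900 to 78369 in IL-33-deficient controls to a range of 15997 to 29557. No list was at 0, since intensities hold background. The part that the makeup of the tissue had in the falls of Hnf4a and Esrra and in the rise of Pax8 was not tested.

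The genes most like each factor were taken over the 12 obstructed kidneys, after the mean of each genotype was removed, as a description of these arrays. Hnf4a was followed by Serhl (r = 0.970), Akr7a5, an aldehyde reductase (r = 0.968), and Prss8, a channel-activating protease (r = 0.962). Esrra was followed by the circadian factor Tef (r = 0.982), Ascc1 (r = 0.982) and Usp2, a deubiquitinase (r = 0.978), and Pax8 by Fancl (r = 0.947), A430090L17Rik (r = 0.946) and Gpatch4 (r = 0.941). Without arrays 3818 and 3820 the r of these 9 genes lay between 0.859 and 0.950. The arrays share their sets of mice and the extent of injury, and no p was computed.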

How the data were processed

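The authors labeled total RNA of 16 kidneys, hybridized it to MouseRef-8 v2 BeadChips and read the arrays into R through beadarray. BeadStudio 2 is named in the submitters' processing notes. The deposited values are linear intensities, 1 per gene, for 18132 genes. How background was corrected, how values were normalized and how probes were joined into genes is not given in the sources used here. Array medians lay between 132.3 and 133.4, so the deposited intensities had already been made alike between arrays. The lowest intensity was 95.48, which is background, and no detection p-values came with the table, so no gene was left out. Arrays have no read depth, and their number limits the precision.

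From the log2 of quantile-normalized intensities, linear models with moderated variances (limma 3.58.1, R 4.3.3) were fitted to every gene. P-values were adjusted by the method of Benjamini and Hochberg across the 18132 genes, and 0.05 was the threshold. Responses to UUO, the difference between them and that between controls came from 1 model of 4 groups. Genotypes after UUO were compared over the 12 obstructed kidneys at an unadjusted p of 0.05, an adjusted p of 0.25 and a fold of 1.3. Kidneys were counted as single animals, as the study describes its UUO data. Exact permutation tests counted all splits of the arrays, and correlations used 100000 permutations (Python 3.11.15, numpy 2.4.6, scipy 1.17.1, pandas 2.3.3, matplotlib 3.10.9). On simulated arrays with 200 genes changed by a log2 of 1, limma recovered 98.5% for the WT response, 98.0% for the IL-33-deficient response, 88.5% for the difference between them, 92.5% between controls, 99.0% between genotypes after UUO and 99.5% between sets. Between 5 and 9 unchanged genes were called in each. Values were drawn independently with the pooled spread of each gene and no sets, and the changed genes were picked at random. These shares are therefore of the whole table and do not give the power for single factors.

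Members and lists were chosen with earlier results of these data known. Named were the members, Il33, Havcr1, Lcn2 and, from each list, up to 3 of the largest called rises and 3 of the largest called falls in WT kidneys, and for likeness the 3 genes with the highest r. The 3 measured genes with a printed HNF4 site were added for their sequence, and 2 genes that the rule names are not reported here. Symbols were matched directly or, for 4 list genes, through a RefSeq synonym that belongs to 1 gene. Tfcp2l1 and 12 of the other listed genes were not matched. The sequences are RefSeq's on GRCm38.p6, and motifs were counted on both strands. Alternatives were no second normalization, median centring, subtraction of the lowest intensity, array weights, a prior variance that follows intensity, genes above the median intensity, each array left out, the compared groups alone, each set alone, the set as a block, the 4 groups in 1 model and other fold minimums. Leaving out arrays 3818 and 3820 together was added after the data were seen.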

Additional observations from a re-analysis of the deposited data

Results flagged for a closer look

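Among 20 groups of arrays searched (10 genes, in obstructed WT and obstructed IL-33-deficient kidneys), 3 held an array far from the others. Chance gives about 1 in 20. Il33 on the WT array 3818 was the lowest at 8.39, with a gap to the next array of 0.605 of the range of the 7 arrays, past Dixon's critical value. Havcr1 on the WT array 3820 was the lowest at 10.42, with a gap of 0.685 of the range. Lcn2 on the IL-33-deficient array 3899 was the lowest at 12.97 (gap 0.723 of the range of the 5 arrays). None of the 7 factors had such an array, although arrays 3818 and 3820 were the highest WT kidneys after UUO for Hnf4a and Esrra.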

How the results depend on the processing

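The direction of Hnf4a, Esrra and Pax8 after UUO was the same under all 26 alternatives in WT kidneys and all 25 in IL-33-deficient kidneys. The 3 factors called in WT kidneys became 0 with the compared groups alone in the fit (adjusted p 0.0751, 0.114 and 0.117) and 0 in set 1 alone, where the cause was not tested, and 0 to 3 with 1 array left out. In IL-33-deficient kidneys that range was 1 to 3. The WT call of Pax8 was lost in 13 of 26 alternatives, with adjusted p over all of them from 0.00046 to 0.238, that of Hnf4a in 4 and that of Esrra in 5. Among those of Pax8, leaving out an IL-33-deficient array, which enters through the shared spread alone, gave up to 0.0547. No factor was called between the genotypes or the sets under any alternative. The sign turned for the difference in response of Hnf4a in set 2 alone (0.097) and without arrays 3818 and 3820 (0.042), and for the genotypes after UUO in set 2 alone (0.035 for Hnf4a, 0.047 for Esrra, -0.019 for Pax8) and without those arrays (0.0031 for Esrra). Genes called over the table ran from 197 (set 1 alone) to 4244 (set 2 alone) in WT kidneys, beside 2754, with 4119 without arrays 3818 and 3820, 4022 with array weights, 1778 with the compared groups alone, 799 without array 3812, 1053 without array 3811 and up to 3575 with another array left out. They ran from 2261 to 4460 in IL-33-deficient kidneys, beside 3955, with 2281 without array 3813 and 2576 without array 3814. For the genotypes after UUO they ran from 0 (set 1 alone) to 307 (without array 3819), beside 2, with 168 for the brighter genes, 127 for 4 groups in 1 model, 93 without array 3899, 31 without array 3820, 82 in set 2 alone and 80 with array weights. Between the sets they ran from 0 to 278 (without arrays 3818 and 3820), with 100 without array 3822. No scaling moved the median of all genes by over 0.1. No paired analysis was possible because the groups share no replicate numbers. Signal near background limits what can be said of Pax2, Esrrg, Pou3f3 and Foxi1, and 2 controls a genotype limit every response.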
